A study of Mus musculus with 6 samples.

Results

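H/ACA RNAs are small nucleolar RNAs (snoRNAs) and small Cajal body RNAs (scaRNAs) of the nucleus, and short fragments of them were followed here in small RNA libraries of mouse sensorimotor cortex. The members were the genes of biotype snoRNA or scaRNA in GENCODE release M21 whose symbol starts with Snora or Scarna. A read counted for a member when it lay in its transcript on the sense strand without a mismatch and in no annotated miRNA hairpin. No genome sequence was searched, so reads that also arise elsewhere in the genome could not be set apart. All 49 such symbols (51 gene identifiers, 40 Snora and 9 Scarna symbols) had reads, out of 1377 small RNA genes with a read in the whole table. They took 17596 of 115958638 reads and 1784 of 2543604 distinct sequences. The study compared 3 male C57BL/6J mice aged 90 days whose spinal cord had been completely cut at level C5/C6 (SCI) with 3 male C57BL/6J mice of the same age whose cord had only been exposed and left intact (control). Both groups were sampled 7 days after surgery, and every library came from a separately collected cortex sample. All animals were wild type and were operated on under isoflurane.

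Most H/ACA RNAs lie inside introns of host genes and are set free when the spliced intron is trimmed. Each folds into a pair of hairpins joined by a hinge, the H box, and ends in an ACA box close to the 3′ end, and with the protein dyskerin it guides the conversion of chosen uridines to pseudouridine. Snora RNAs act mainly on ribosomal RNA in the nucleolus, whereas scaRNAs act on the small nuclear RNAs of the spliceosome in Cajal bodies. Short pieces of such RNAs can enter Argonaute proteins in human cells, and some annotated miRNAs lie within H/ACA RNAs.

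The sequences near the transcript ends bear out the label for the Snora members but not for all Scarna members. Only these ends were searched, and H/ACA motifs further inside were not looked for. The letters ACA stood exactly 3 nt before the annotated 3′ end in 35 of 42 Snora transcripts (83.3%), in 2 of 9 Scarna transcripts and in 0 of 98 C/D box snoRNA (Snord) transcripts, read on the sense strand. TGATGA, the core of the C box of the other snoRNA class, lay in the first 15 nt of 0 of 42 Snora, 4 of 9 Scarna and 64 of 98 Snord transcripts, and CTGA, the D box, in the last 12 nt of 3, 5 and 86 of them. Scarna6, Scarna9, Scarna10 and Scarna17 carried both C and D box letters at their ends. They are therefore called scaRNAs with C and D boxes below. They stay among the members, and H/ACA reads or fragments below mean those of all members.

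The most abundant reads of the leading members show what kind of fragment was sequenced. They are given 5′ to 3′ as deposited, in DNA letters, with the letters of the ACA box in capitals where the read reaches it.
Snora41, nt 108 to 129 of 132: ggaggattatgtgtgacagACA
Snora16a, nt 117 to 137 of 137: acattgtggaaaatgACAgct
Snora7a, nt 115 to 137 of 140: tgattggaagacactctgcaACA
Snora30, nt 107 to 126 of 130: cagctgttactcaagggaAC
Snora68, nt 109 to 131 of 131: gtgaatcagtaggctctACAgaa
Snora44, nt 64 to 85 of 129: atggagagactttgacagctca
Snora44, nt 1 to 32 of 129: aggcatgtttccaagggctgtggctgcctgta
Snora36b, nt 68 to 89 of 132: gctggctggggaaaatgactgg
Scarna10, nt 179 to 204 of 325: ctccagctgccagggaggaattgtgg
Scarna6, nt 235 to 265 of 265: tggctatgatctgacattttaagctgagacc
The first 5 reads end at or next to the ACA box or run through it to the 3′ end. The Snora44 read from nt 64 and the Snora36b read start near the middle of their transcripts. The Snora44 read from nt 1 and the Scarna6 read are examples of long fragments whose level varied between libraries.

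Snora41 gave the most reads of all members. It lies on GRCm38 chromosome 1 from 63179004 to 63179135 (plus strand) in an intron of Eef1b2, which encodes a translation elongation factor subunit. Its level was 30.4, 25.8 and 27.1 RPM (reads scaled to a library of 1000000 reads) in SCI 1, 2 and 3, against 23.6, 24.0 and 28.7 RPM in control 1, 2 and 3. These groups overlapped. Snora16a (chromosome 4, 132309464 to 132309600, plus strand) came next and lies in Snhg12, a long noncoding host gene. It had 14.8, 18.5 and 15.1 RPM in SCI libraries, against 26.7, 28.1 and 29.0 RPM in control libraries, with no overlap. Snora7a, within Rpl32, a ribosomal protein gene, had 21.6, 15.2 and 16.6 RPM in SCI libraries, against 18.4, 14.3 and 16.4 RPM in control libraries. Snora44, also in Snhg12, had 12.4, 23.2 and 14.3 RPM in SCI libraries, against 10.9, 12.6 and 11.9 RPM in control libraries. Both overlapped, and SCI 2 stood apart for Snora44. Snora36b, in an intron of Rab3gap2, had 11.0, 8.80 and 11.2 RPM in SCI libraries, against 6.54, 11.9 and 10.7 RPM in control libraries, again with overlap.

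**Figure D1:**
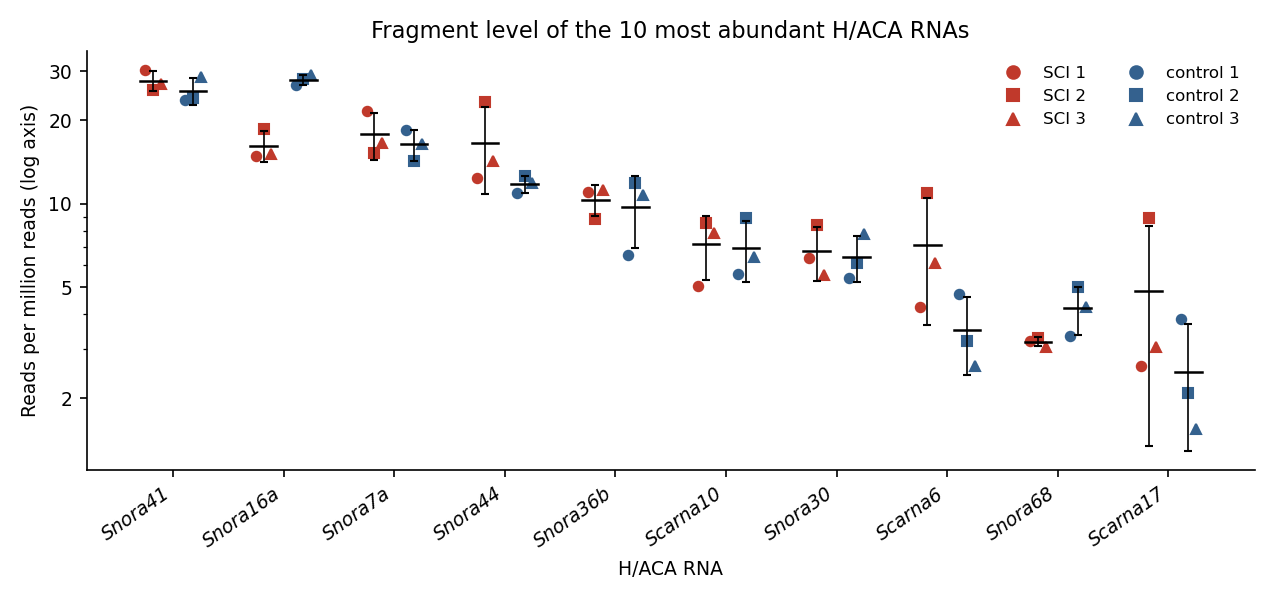
Fragment level of the 10 most abundant members in RPM (log axis), SCI libraries left in red and control libraries right in blue, with the mean and SD (n = 3) in black. The SCI points of Snora16a (14.8 to 18.5) lie below its control points (26.7 to 29.0), while the groups overlap for Snora41, Snora7a, Snora44 and Snora36b.

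The other leading members were Scarna10 (mean of 7.06 RPM over the 6 libraries), Snora30 (6.60), Scarna6 (5.31), Snora68 (3.70) and Scarna17 (3.67). Reads were concentrated on few genes, since the 5 leading members held 59.3% and the first 10 held 77.0% of all member reads. The median member had 125 reads over all libraries. Levels were also scaled by length, although many reads came from preferred positions, so neither scale settles the order of genes. Per length Snora41 led with 20.1 RPM per 100 nt of transcript, before Snora16a (16.1), Snora7a (12.2), Snora44 (11.0) and Snora36b (7.61). Scarna10 stood at 2.17 and Scarna6 at 2.002 RPM per 100 nt on the same scale, below the short Scarna17 (4.64) and Scarna9 (3.43). The first place of Snora41 came from the SCI libraries. There it was above Snora16a, a transcript of similar length, in each library (27.7 ± 2.37 and 16.2 ± 2.06 RPM, SD, n = 3). It was below Snora16a in each control library (25.4 ± 2.83 and 27.9 ± 1.17 RPM), where the means differed by less than the SD of Snora41.

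Most leading members had preferred read positions. A read was called 3′ terminal when it ended within the last 5 nt of the transcript and 5′ terminal when it started within the first 5 nt. In Snora16a 97.1% of the reads were 3′ terminal and 72.2% were the single 21-nt sequence above. In Snora41 91.3% of reads started within 3 nt of nt 108, and 48.3% were the 22-nt read above. Snora68 reads were also 3′ terminal (92.6%) but had scattered starts, and its most abundant read made up 8.59% of them. The most abundant read was 3′ terminal in 27 of 49 members and 5′ terminal in 12. Snora21 (99.0%), Snora34 (98.3%), Snora5c (96.8%), Snora61 (96.7%) and Snora73a (95.8%) likewise gave almost only 3′ terminal member reads. The 239 member reads of Snora34 leave out 73 reads in the miRNA hairpin Mir1291, the commonest at nt 1 to 27. Snora3 (56.2%), Snora24 (61.2%), Snora64 (65.4%) and Scarna13 (87.5%) gave mainly 5′ terminal reads. For Scarna13 this holds only outside its Mir3069 hairpin. Its 136 member reads leave out 317 reads on the 3′ arm and 447 on the 5′ arm of that hairpin. A further set, Snora36b (98.9%), Snora78 (90.2%), Snora2b (89.7%), Snora44 (67.7%) and Scarna8 (66.7%), gave mainly internal member reads of the 3′ side, starting between nt 64 and 68. The 1130 member reads of Snora36b leave out far more reads in its Mir664 hairpin. These were 28514 on the 3′ arm, the commonest at nt 106 to 126, and 5413 on the 5′ arm, the commonest at nt 69 to 90.

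Ends near the ACA box were commonest at the annotated 3′ end and 3 nt before it. Of all member reads, 27.98% ended exactly at the annotated 3′ end, 13.9% ended 3 nt before it, which is the last base of an ACA box at its usual place, and 8.94% ended 4 nt before it. A further 4.99% ended 5 nt and 1.74% ended 6 nt before it. The members differed in which of these they used. Of the 3′ terminal reads of Snora41, 66.8% ended 3 nt and 31.5% ended 4 nt before the transcript end, and 0.0439% ended at it. Snora7a had 44.5% and 40.3% at these positions and Snora30 had 33.1% and 55.7%. Snora16a and Snora68 had 89.98% and 81.4% of their 3′ terminal reads at the annotated end itself. Reads that ended 5 nt or more before the end are outside these shares, such as the Snora41 read from nt 108 to 127. Internal reads of the 3′ side, which include them, made up 25.8% of Snora41 and 32.1% of Snora7a reads.

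**Figure D2:**
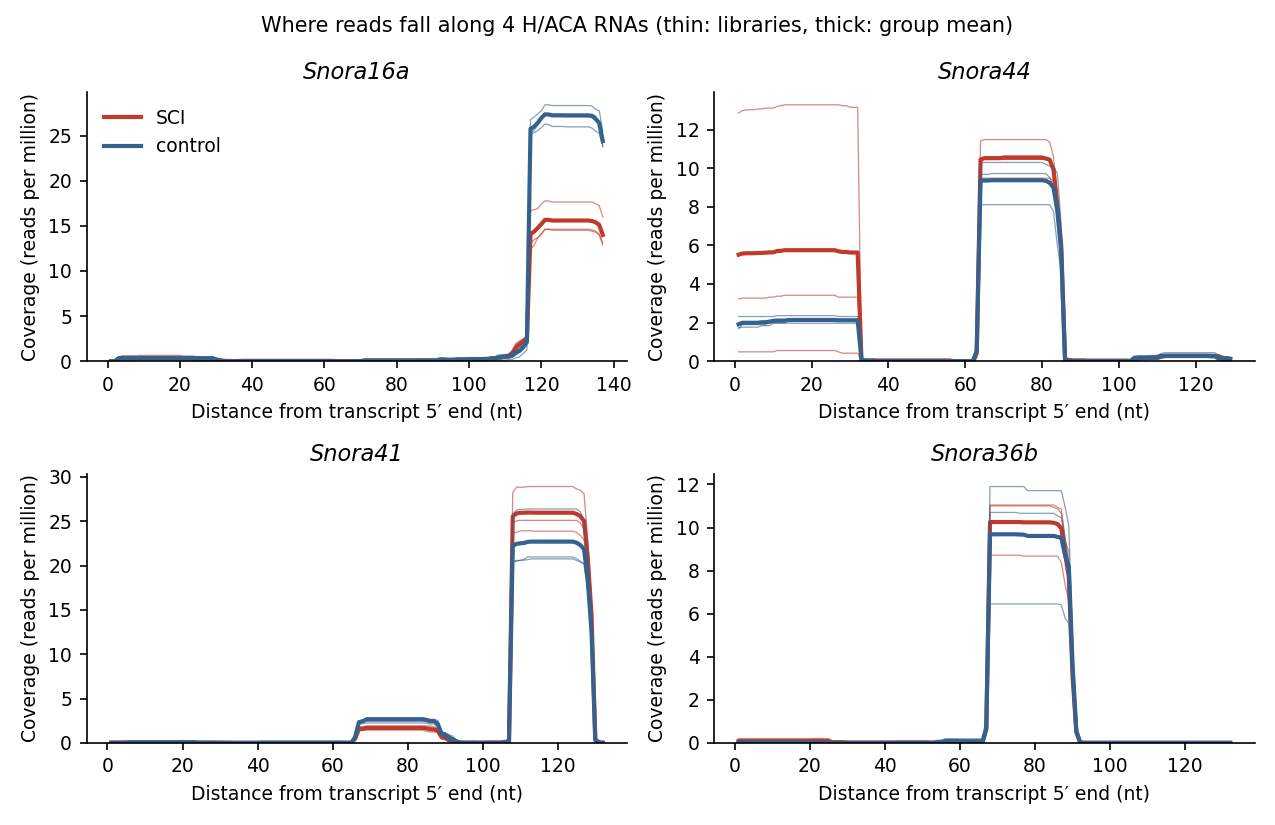
Coverage in RPM along 4 H/ACA RNAs, with distance from the 5′ end in nt on the horizontal axis. Thin lines are libraries and thick lines group means, SCI red and control blue. Reads in miRNA hairpins, such as Mir664 in Snora36b, are left out. Snora16a and Snora41 carry a block of reads near the 3′ end, Snora44 and Snora36b a block from nt 64 or 68, and the block at the 5′ end of Snora44 is high in SCI 2.

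In a predicted minimum free energy fold (RNAfold), the leading fragments differed in how many of their bases paired with another part of the transcript. Of the 22 bases of the Snora41 fragment, 19 paired upstream, with nt 68 to 90. Reads from that opposite arm were present, at 248 of 3083 Snora41 reads (8.04%). Snora30 showed the same layout, with 13 of the 20 bases paired upstream and 20.03% of its reads on the opposite arm. For Snora44 16 of 22 bases of the read from nt 64 paired downstream, with nt 101 to 122, where 1.90% of its reads lay. Snora16a had 11 of 21 bases paired and only 5 of 2571 reads (0.194%) on the opposite arm. Snora68 had 11 of 23 bases paired and no read on the opposite arm, and Scarna10 had 7 of 26 bases paired outside the fragment and 10 within it. For Snora41, Snora16a, Snora30 and Snora44 the leading read lay on an arm of the predicted 3′ hairpin, which was the 3′ arm in the first 3 and the 5′ arm in Snora44.

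Some H/ACA RNAs also hold an annotated miRNA, and reads inside such hairpins were left out by definition. Snora36b holds Mir664, whose reads took 306, 298 and 298 RPM in SCI libraries, against 265, 302 and 296 RPM in control libraries. The leading member read of Snora36b starts 1 nt before the annotated miR-664-5p and therefore falls outside the GENCODE hairpin. The mature sequences from RefSeq (GRCm38), with the seed (bases 2 to 8) in capitals, show the shift against the Snora36b read given above.
mmu-miR-664-5p, from nt 69 of Snora36b: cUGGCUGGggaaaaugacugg
mmu-miR-664-3p, from nt 106 of Snora36b: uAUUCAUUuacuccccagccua
Snora36b thus had 1130 reads under the rule used here, of which 98.8% started within 3 nt of nt 68. The 3′ arm reads of hairpins ended at different distances from the transcript end. The most abundant 3′ arm read ended 3 nt before the transcript end in Snora19 (Mir3084-1) and Scarna13 (Mir3069) and 2 nt before it in Scarna3a and Scarna3b (Mir1843a and Mir1843b), but 6 nt before it in Snora36b (Mir664). The leading Snora41 and Snora7a member reads ended 3 nt before it. Scarna3a and Scarna3b had 21 and 13 reads outside these hairpins, whereas their hairpin reads took 765, 782 and 735 RPM for Scarna3a in SCI libraries, against 628, 819 and 876 RPM in control libraries. Of the 139158 hairpin reads that lay in Scarna3a or Scarna3b, 24.7% lay in both.

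Library totals were 14628518, 23408028 and 19918863 reads in SCI 1, 2 and 3, against 22937179, 10585062 and 24480988 reads in control 1, 2 and 3. Marker miRNAs of cortex (hairpins of miR-124, miR-9 and miR-128, all 8 measured) summed to 152356 to 166748 RPM in SCI libraries and 169942 to 180854 RPM in control libraries, every SCI library below every control. The liver marker Mir122 had 3.76 to 5.26 RPM in SCI and 2.66 to 5.10 RPM in control libraries, and skeletal muscle markers (6 of 6 measured) summed to 429 to 491 RPM in SCI and 444 to 477 RPM in control libraries. Red blood cell markers (2 of 2 measured) summed to 389 to 1024 RPM in SCI and 469 to 723 RPM in control libraries, and choroid plexus markers to 520 to 937 RPM in SCI and 586 to 979 RPM in control libraries, with overlap in all of these but the cortex list. Reads of 30 to 34 nt took 0.584%, 3.66% and 2.31% of SCI 1, 2 and 3, against 1.33%, 0.611% and 0.543% of control 1, 2 and 3. SCI 2 and SCI 3 thus held the largest shares of long reads, and their miRNA shares were the lowest (73.3% and 73.5%, against 78.5% to 79.4% in the other 4 libraries). Their part in the results below was not tested, except where values for shorter reads or without SCI 2 are given. In whole tissue, fewer cells of a type and less RNA per cell cannot be told apart.

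Summed over all members, fragments took 0.0144%, 0.0167% and 0.0140% of reads in SCI libraries, against 0.0157%, 0.0149% and 0.0147% in control libraries. The means were 0.0150% ± 0.00142 in SCI and 0.0151% ± 0.000528 in control (SD, n = 3 each), so the groups differed by less than their spread. Counting error alone gave each share a 95% Wilson interval no wider than 0.00147 percentage points. Snora fragments alone summed to 127, 129 and 116 RPM in SCI libraries, against 136, 129 and 131 RPM in control libraries, all SCI libraries lying below all controls, SCI 2 (128.9) only just below control 2 (129.05). Without Snora16a the Snora sum was 112, 110 and 101 RPM in SCI libraries, against 109, 101 and 102 RPM in control libraries, and the groups overlapped. Scarna fragments summed to 0.00170%, 0.00377% and 0.00241% of SCI libraries, against 0.00217%, 0.00203% and 0.00160% of control libraries.

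Single members were tested with edgeR's quasi-likelihood test on all 715 small RNA genes with enough reads, of which 36 were members. The 13 members not tested had 244 reads together. No member passed at a Benjamini-Hochberg adjusted p under 0.05, and no gene of the table did (0.0%). At an unadjusted p under 0.05 edgeR listed 3 of 36 members (8.33%), 1 higher and 2 lower in SCI, beside 16.5% of all genes tested (8.95% higher, 7.55% lower). Groups did not overlap for 7 of 36 members (19.4%), 1 higher and 6 lower in SCI, beside 21.3% of all genes (12.4% higher, 8.81% lower). By direction, the members without overlap were 2.78% higher and 16.7% lower, the lower share being above and the higher share below that of all genes, and this was not tested. It was not particular to members. Of 73 Snord genes tested, 2 were higher and 11 lower without overlap. Of 101 snoRNA genes with other symbols, 7 were higher and 13 lower. With DESeq2 1 of 35 members passed, beside 4.71% of 701 genes, and that member was Snora16a. The median log2 fold change (SCI over control) was -0.18 over the 29 Snora members tested (9 above and 20 below 0), 0.03 over the 7 Scarna members and 0.02 over all 715 genes.

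**Figure D3:**
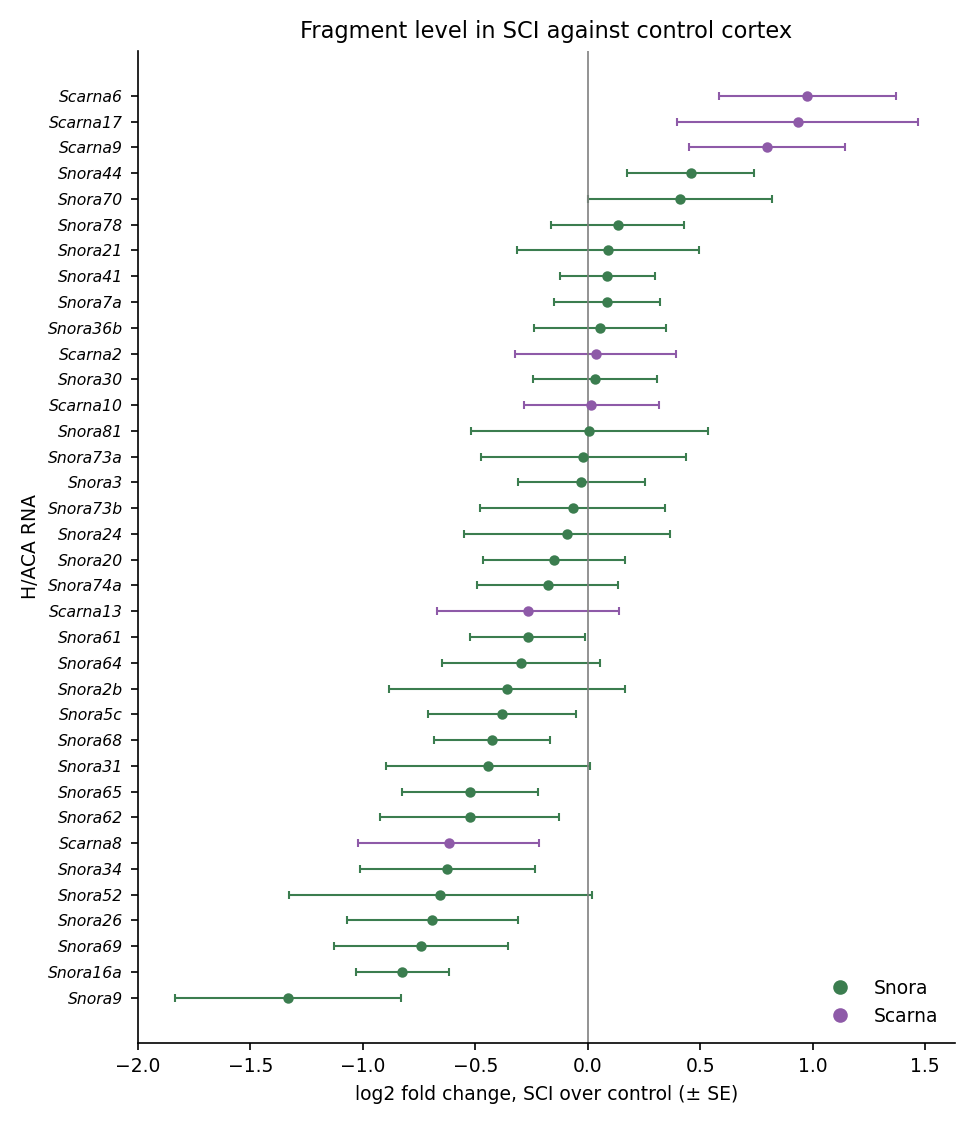
The log2 fold change of SCI over control ± SE for the 36 members tested with edgeR, Snora in green and Scarna in purple. Snora16a (-0.82) and Snora9 (-1.33) lie at the low end and Scarna6 (0.98), Scarna17 (0.93) and Scarna9 (0.80) at the high end, and no point passed the adjusted threshold.

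Snora16a had the smallest p of the members. It had 217, 434 and 301 reads in SCI libraries, against 612, 297 and 710 reads in control libraries, or 16.2 ± 2.06 RPM in SCI and 27.9 ± 1.17 RPM in control (SD, n = 3). The log2 fold change was -0.82 ± 0.21 (SE) with an edgeR adjusted p of 0.161, and all 3 SCI libraries lay below all controls. DESeq2 gave -0.83 with an adjusted p of 0.000437, so the call depends on the tool. Under edgeR the adjusted p ranged from 0.101 to 0.556 over the alternative settings and left-out libraries, and the fold change from -0.97 to -0.77.

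Snora16a reads were split by their start after the leading read was seen. Reads that started at nt 117 and were 3′ terminal had 10.5, 14.1 and 10.2 RPM in SCI libraries, against 22.7, 24.1 and 24.2 RPM in control libraries. All other Snora16a reads, 513 in number, had 4.31, 4.40 and 4.87 RPM in SCI libraries, against 3.97, 3.97 and 4.78 RPM in control libraries, and overlapped. The 21-nt read itself had 136, 303 and 183 reads in SCI libraries, against 480, 220 and 533 reads in control libraries. Its log2 fold change was -1.09 ± 0.22 with an edgeR adjusted p of 0.126 over 31242 sequences tested, and the read 1 nt shorter at its 3′ end had -1.20 ± 0.36 (adjusted p 0.163). By contrast the read that starts at nt 121 had -0.03 ± 0.50, and that from nt 119 had 0.03 ± 0.73. The difference between these starts was not tested.

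The place of the 21-nt Snora16a read is shown in capitals in its transcript (GRCm38 chromosome 4, 132309464 to 132309600, plus strand), beside both fragments of Snora44 from the same host gene (132309941 to 132310069) and the leading fragment of Snora41 for comparison.
Snora16a: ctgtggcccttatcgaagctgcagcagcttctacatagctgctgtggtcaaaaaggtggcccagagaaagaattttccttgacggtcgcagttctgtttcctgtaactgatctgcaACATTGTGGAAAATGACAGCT
Snora44: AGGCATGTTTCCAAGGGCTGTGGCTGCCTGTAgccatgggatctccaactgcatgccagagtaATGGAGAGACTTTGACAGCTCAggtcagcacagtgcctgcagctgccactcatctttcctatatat
Snora41: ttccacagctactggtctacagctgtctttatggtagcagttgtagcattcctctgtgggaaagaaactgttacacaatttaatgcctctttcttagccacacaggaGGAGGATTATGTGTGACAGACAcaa

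Snora16a, Snora44 and Snora61 share the host gene Snhg12, and none of them passed after adjustment. Snora44 had a log2 fold change of 0.46 ± 0.28 (edgeR adjusted p 0.506), or 0.10 without SCI 2. Its fragment from nt 64 had 11.5, 9.48 and 10.6 RPM in SCI libraries, against 8.11, 10.3 and 9.72 RPM in control libraries. Its 5′ fragment from nt 1 had 0.479, 13.0 and 3.26 RPM in SCI libraries, against 2.31, 1.89 and 1.76 RPM in control libraries, with the highest and the lowest value both in SCI. Snora61 had 1.16, 1.15 and 1.26 RPM in SCI libraries, against 1.48, 1.42 and 1.31 RPM in control libraries (log2 fold change -0.27 ± 0.25, edgeR adjusted p 0.692), every SCI library lying below every control as for Snora16a. The ratio of Snora44 to Snora16a reads within a library was 0.834, 1.25 and 0.944 in SCI, against 0.408, 0.448 and 0.411 in control. That of Snora44 to Snora61 was 10.6, 20.1 and 11.4 in SCI, against 7.35, 8.87 and 9.125 in control. That of Snora61 to Snora16a was 0.0783, 0.0622 and 0.0831 in SCI, against 0.0556, 0.0505 and 0.0451 in control. Each ratio was higher in every SCI library than in every control. These ratios were chosen after the levels were seen and are given without a test.

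**Figure D4:**
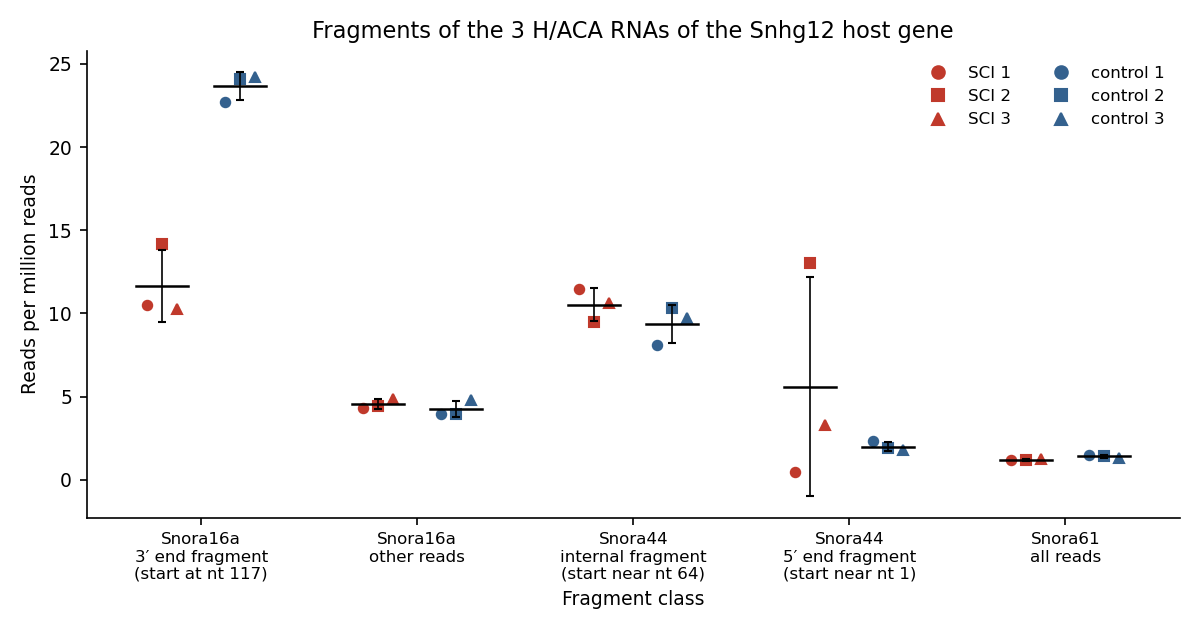
RPM of fragment classes of Snora16a, Snora44 and Snora61, all in the host gene Snhg12, SCI left in red and control right in blue, with the mean and SD (n = 3). The Snora16a fragment from nt 117 lies at 10.2 to 14.1 in SCI and 22.7 to 24.2 in control, while its other reads overlap between groups, and the 5′ fragment of Snora44 is high in SCI 2 (13.0).

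Other members with low values in SCI were less abundant. Snora9, in the noncoding host gene Snhg15, had 1.03, 0.769 and 0.853 RPM in SCI libraries, against 3.97, 1.13 and 1.27 RPM in control libraries. Its log2 fold change of -1.33 ± 0.50 (edgeR adjusted p 0.266) was -0.52 without control 1. The 19-nt 3′ end read of Snora9 (atagaaatttcagACAata, ACA box in capitals) had 4, 2 and 4 reads in SCI libraries, against 64, 5 and 19 reads in control libraries, so most of its control reads came from control 1. Snora69, in the ribosomal protein gene Rpl39, had a log2 fold change of -0.74 ± 0.39 and Snora26, in the noncoding gene Dancr, one of -0.69 ± 0.38, and for each the groups overlapped. Without control 1 the Snora69 value was -0.31. Snora65 in Rpl12 (-0.52 ± 0.30), Snora68 (-0.43 ± 0.26) and Snora5c in Tbrg4 (-0.38 ± 0.33) had, like Snora16a, Snora9 and Snora61, every SCI library below every control library. For Snora65 the margin was very small, with SCI 3 at 1.305 RPM and control 3 at 1.307 RPM. Snora68 for example had 3.21, 3.29 and 3.06 RPM in SCI libraries, against 3.36, 5.01 and 4.25 RPM in control libraries. The lowest edgeR adjusted p among Snora9, Snora69, Snora26, Snora65, Snora68 and Snora5c was 0.266.

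Of 10 tested members hosted by ribosomal protein genes, 3 had a log2 fold change above 0 and 7 below, with a median of -0.36, and none reached an unadjusted edgeR p under 0.05, beside 16.5% of all genes tested. Among the 9 tested members in Snhg genes, 2 lay above and 7 below 0 (median -0.09), and 2 of them, Snora16a and Snora9, were lower at an unadjusted edgeR p under 0.05, beside 7.55% of all genes. Of all 715 genes, 372 lay above and 343 below 0.

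The largest positive values belonged to scaRNAs with C and D boxes. Scarna6, in an intron of the autophagy gene Atg16l1, had 4.24, 10.9 and 6.12 RPM in SCI libraries, against 4.75, 3.21 and 2.61 RPM in control libraries, a log2 fold change of 0.98 ± 0.39 (edgeR adjusted p 0.281). Scarna9, in an intron of Cep295, had 2.60, 3.84 and 2.86 RPM in SCI libraries, against 2.35, 0.945 and 1.80 RPM in control libraries (0.80 ± 0.35, adjusted p 0.298). It was the only tested member with every SCI library above every control. Scarna17 had 2.60, 8.89 and 3.06 RPM in SCI libraries, against 3.84, 2.08 and 1.55 RPM in control libraries (0.93 ± 0.53, adjusted p 0.464). Scarna10, which guides modification of a spliceosomal small nuclear RNA in human cells, had 7.16 ± 1.85 RPM in SCI and 6.96 ± 1.72 RPM in control (SD, n = 3), a log2 fold change of 0.02 ± 0.30. Summed, these 4 RNAs had 14.5, 32.2 and 19.9 RPM in SCI libraries, against 16.5, 15.1 and 12.4 RPM in control libraries.

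Reads of 3 of these 4 RNAs were mostly long. Reads of 28 to 34 nt made up 84.2% of Scarna6, 84.2% of Scarna17 and 52.9% of Scarna9 reads, and 55.5% over the 4 scaRNAs with C and D boxes, against 7.56% of Snora reads. Scarna10, which had the most reads of the 4, had 17.5% in that range. Scarna6 reads came from both transcript ends, with 53.3% 5′ terminal and 44.6% 3′ terminal. Scarna9 reads were mainly 5′ terminal (73.0%) and Scarna17 reads mainly 3′ terminal (77.1%), whereas 60.0% of Scarna10 reads were internal and on its 3′ side. The 5′ reads of Scarna6 and Scarna9 hold the C box letters, shown in the sequences as deposited.
Scarna6, nt 1 to 30 of 265: ggtcagtgatgaatagtaaaaggtctgact
Scarna9, nt 1 to 31 of 70: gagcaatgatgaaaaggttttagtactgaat
The Scarna6 read from nt 1 had 13, 57 and 23 reads in SCI libraries, against 21, 2 and 5 reads in control libraries (log2 fold change 1.61 ± 0.69, edgeR adjusted p 0.302). The Scarna9 read had 4, 27 and 15 reads in SCI libraries, against 11, 0 and 4 reads in control libraries (1.49 ± 0.82, adjusted p 0.428). SCI 2, the library with the largest share of reads of 30 to 34 nt, was highest for Scarna6, Scarna9 and Scarna17 and for both of these reads, whereas Scarna10 was highest in control 2 (8.88 RPM). Leaving out 1 library gave 1.07 to 2.80 for the Scarna6 read over 6 fits. For the Scarna9 read it gave 1.08 to 2.65 over the 5 fits in which that read was tested. With reads of 17 to 27 nt only, a choice made after seeing the data, the log2 fold change of Scarna6 was -0.39, that of Scarna9 0.22, that of Scarna17 0.42 and that of Snora44 0.16. Without SCI 2 it was 0.48 for Scarna6, 0.57 for Scarna9 and 0.11 for Scarna17. Scarna reads of 17 to 27 nt summed to 10.5, 12.3 and 10.9 RPM in SCI libraries, against 11.3, 12.8 and 11.4 RPM in control libraries. Their reads of 28 to 34 nt summed to 6.49, 25.4 and 13.2 RPM in SCI libraries, against 10.4, 7.46 and 4.62 RPM in control libraries.

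The remaining scaRNAs lacked such values. Scarna2, a long scaRNA with a D box motif near its 3′ end, had a log2 fold change of 0.03 ± 0.36, but its 17-nt 3′ end read had 3, 5 and 2 reads in SCI libraries, against 12, 6 and 15 reads in control libraries (-1.77 ± 0.47, edgeR adjusted p 0.136). Its longer reads from near nt 384 had 0.205, 1.07 and 0.803 RPM in SCI libraries, against 0.480, 0.283 and 0.0408 RPM in control libraries. The 17-nt read is gagcgattctgatctga, nt 398 to 414 of 414. Scarna13, in Snhg10, had -0.27 ± 0.40 and Scarna8 -0.62 ± 0.40, and for each the groups overlapped.

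Among members with a described role, Snora73a and Snora73b, which act in the processing of 18S rRNA precursors, had log2 fold changes of -0.02 ± 0.46 and -0.07 ± 0.41. Snora73a had 11, 28 and 20 reads in SCI libraries, against 37, 4 and 20 reads in control libraries. Snora73a and Snora73b share sequence, and the 11 member reads that fitted more than 1 member were left out of gene counts. Snora35, an RNA restricted to brain in an intron of the serotonin receptor gene Htr2c, had 2, 1 and 0 reads in SCI libraries, against 2, 1 and 2 reads in control libraries, too few to test. Snora34 and Snora81 overlap miRNA genes in human. In mouse, Snora34 holds reads of the hairpin Mir1291, which were left out. These were 10, 13 and 14 reads in SCI libraries, against 27, 0 and 9 reads in control libraries. Snora34 had -0.62 ± 0.39, or -0.06 without control 1. Snora81 had 4.58, 1.58 and 2.06 RPM in SCI libraries, against 4.36, 2.08 and 1.43 RPM in control libraries (0.01 ± 0.53), with SCI 1 and control 1 the highest. Terc, the telomerase RNA, which ends in an H/ACA domain but is not a member, had 1, 8 and 1 reads in SCI libraries, against 9, 10 and 3 reads in control libraries. Scarna15 was not analysed here. Snora70, in Rpl10, completed the 5 members of smallest p with a positive value, at 0.41 ± 0.41, or 0.99 without control 1, 0.19 without control 2 and 0.22 without control 3.

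RNAs of the same pathways are given by counts. Of 73 Snord genes tested, 1 was higher and 14 were lower in SCI at an unadjusted edgeR p under 0.05 (median log2 fold change -0.07), beside 8.95% of all genes higher and 7.55% lower, and none passed after adjustment. Of 10 spliceosomal small nuclear RNA genes, the targets of scaRNAs, 1 was higher and 2 were lower at that level (median -0.24), read against the same shares of all genes. Both rRNA genes tested lay above 0 (median 0.24) without reaching it, and whether Snora RNAs act on these 2 genes was not examined.

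Among 40 member sequences tested singly, from 14 members, edgeR passed none after adjustment, as it passed none of 31242 sequences in all (0.0%). At an unadjusted p under 0.05 it listed 5 of 40 (12.5%), beside 16.9% of all sequences. Groups did not overlap for 2 of 40 member sequences higher in SCI and 4 of 40 lower, beside 13.0% and 9.66% of all sequences. Of these 5, the Snora16a reads from nt 117 to 137 and 117 to 136 and the Scarna2 and Snora9 3′ end reads were lower in SCI. The read of Snora36b from nt 68 to 88 was higher. The other read higher without overlap was that of Snora7a from nt 115 to 134 (0.45 ± 0.31, edgeR adjusted p 0.543). Its lowest SCI value (1.230 RPM) lay only just above its highest control value (1.221 RPM). That Snora36b read (gctggctggggaaaatgactg) had 18, 17 and 22 reads in SCI libraries, against 5, 7 and 10 reads in control libraries (1.24 ± 0.47, adjusted p 0.243). The read 1 nt longer, which is the leading Snora36b read, had 72, 78 and 99 reads in SCI libraries, against 66, 53 and 127 reads in control libraries (-0.06 ± 0.34, adjusted p 0.962). The leading reads of Snora41 (0.13 ± 0.21), Snora7a (-0.09 ± 0.30), Snora30 (0.13 ± 0.32) and Snora44 (0.02 ± 0.26) had values near 0.

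Over all members, fragments were mostly of 20 to 23 nt. The commonest length was 22 nt in all 3 SCI libraries and 21 nt in all 3 control libraries. Without Snora16a, whose commonest length was 21 nt in every library, it was 22 nt in all 6. Reads of 28 to 34 nt made up 6.35%, 28.03% and 15.7% of member reads in SCI libraries, against 13.6%, 8.41% and 6.05% in control libraries. SCI 2 and SCI 3 were the highest of the 6, and SCI 1 lay between control 2 and control 3. The 3′ terminal share was 57.0%, 50.2% and 54.3% in SCI libraries, against 64.3%, 57.7% and 59.9% in control libraries, without overlap. Without Snora16a it was 52.2%, 44.6% and 49.3% in SCI libraries, against 57.5%, 48.4% and 50.6% in control libraries, and the groups overlapped. The 5′ terminal share was 8.15%, 19.7% and 11.2% in SCI libraries, against 10.3%, 8.48% and 6.74% in control libraries, with overlap. No test was made on these sums over members.

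**Figure D5:**
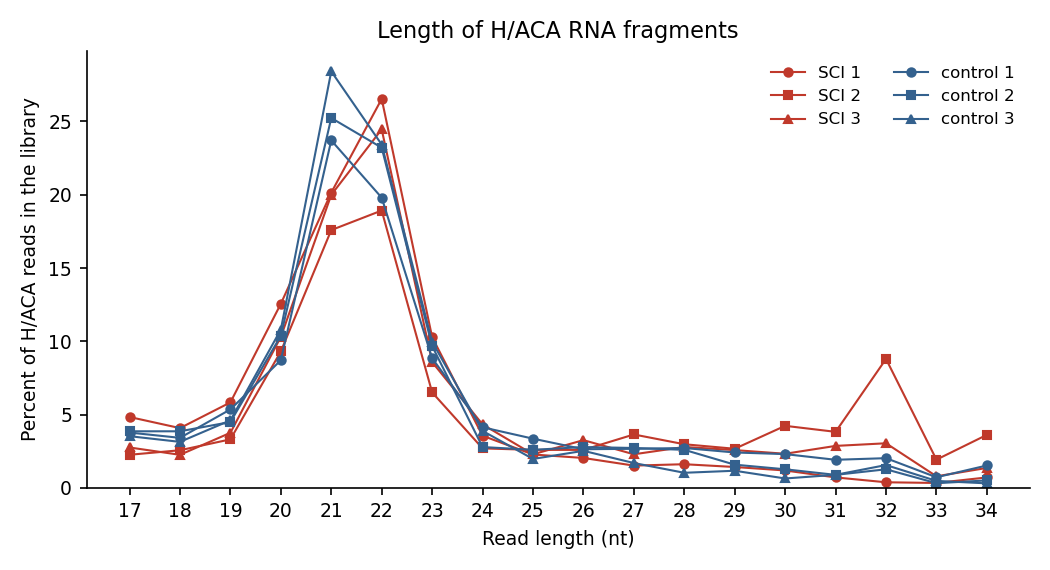
Length of H/ACA reads in nt against the percent of H/ACA reads in each library, SCI in red and control in blue. All libraries peak at 21 or 22 nt, and SCI 2 has a second peak at 32 nt (8.79%).

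Outside miRNA hairpins, H/ACA fragments differed from those of C/D box snoRNAs in every library. Hairpin reads were left out of both classes. Those in Scarna3a or Scarna3b (139158) outnumbered the 17596 member reads, so the values below do not describe all reads in these transcripts. The H/ACA reads include 2204 reads of the scaRNAs with C and D boxes, 55.5% of them of 28 to 34 nt. H/ACA fragments took 0.0151% ± 0.000957 of reads, against 0.222% ± 0.0544 for Snord fragments (mean ± SD over 6 libraries). Their 5′ terminal share was 10.8% ± 4.65, against 29.7% ± 3.11 for Snord, and their 3′ terminal share 57.2% ± 4.78, against 52.0% ± 2.51 for Snord. Reads of 28 to 34 nt made up 13.0% ± 8.33 of H/ACA reads, against 48.3% ± 10.9 of Snord reads. Each of these 4 differences had the same direction in 6 of 6 libraries, and each gave p = 0.03125 in a two-sided exact permutation test of sign flips over libraries (0.03125 after Benjamini-Hochberg adjustment over the 4), which is the smallest p that 6 libraries can give. The difference in the 3′ terminal share rested on Snora16a. Without it, a choice made after seeing the data, the H/ACA share was 50.4% ± 4.29, higher than the Snord share in 2 and lower in 4 of 6 libraries (exact permutation p = 0.28125), while the other 3 differences kept their direction in 6 of 6 libraries.

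A further 1474 reads matched a member only after 1 to 3 bases were removed from the 3′ end and matched no annotated transcript whole. Since no genome sequence was used, bases added to the RNA and bases of the neighbouring genome cannot be told apart. They were expressed as a share of member reads and these further reads together. That share was 7.54%, 9.76% and 7.63% in SCI libraries and 7.73%, 5.61% and 6.56% in control libraries, with overlap. Uridines alone made up 931 and adenosines alone 412 of these reads. The commonest were the Scarna6 3′ end read with 1 further U (310 reads) and the Snora41 read from nt 108 to 128 with 1 U (290 reads). The Scarna6 form had 19, 147 and 50 reads in SCI libraries, against 59, 10 and 25 in control libraries, and the Snora41 form 25, 67 and 53 reads in SCI libraries, against 67, 23 and 55 in control libraries. Reads with A alone amounted to 2.85%, 2.36% and 2.02% in SCI libraries, against 1.94%, 1.91% and 1.97% in control libraries. These too are shares of member reads and the further reads together. All SCI libraries lay above all controls, SCI 3 by a small margin.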

How the data were processed

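Small RNA libraries were made from sensorimotor cortex with HD adapters (degenerate bases at the ligated ends) and sequenced single-end, per the labels' protocols. The authors deposited 1 table per library of distinct sequences of 17 to 34 nt with raw read counts, per the file headers; trimming tools and read filters are not given in the sources used here, and the submitters' processing notes name GRCm38. Groups came from the treatment in the labels.

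Reads were matched here to GENCODE M21 transcripts (GRCm38), miRNA hairpins first, and genes were merged where they shared 50% or more of the smaller gene's reads. Of the member reads, 78.7% lay in no other gene beyond those that overlap the member. Counts per gene and per sequence (total of at least 10) were tested with edgeR 4.0.16 in R 4.3.3 (TMM, filterByExpr with a minimum count of 10, quasi-likelihood test, no covariates, Benjamini-Hochberg over the whole table). Each SE was derived from the F statistic of the test. A member that passed the count filter through 1 group alone could not appear unchanged, so counts over tested members do not stand for all members. RNAfold 2.7.2, pandas 2.3.3, scipy 1.17.1 and matplotlib 3.10.9 were also used. Alternatives were DESeq2 1.42.0 as test or scaling, all reads as scaling, other count and length limits, the replicate number as a block and leaving out each library. The statistical procedure was tested on simulated counts.

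Named members were those passing, the 5 of smallest p per direction, the 10 most abundant and a fixed set (Snora73a, Snora73b, Snora35, Snora34, Snora36b, Snora81, Scarna15, Scarna2, Scarna9, Scarna10, Scarna13 and Terc). Further members were named after their values were seen. Members, lists and rule were chosen with earlier results of these data known. Library pairs differed far beyond sampling noise (161 to 1072 chi-square per degree of freedom), so none was a copy. Without molecular identifiers, intervals hold counting error only. Sequences on chromosome 18 (Snora74a, Scarna17) are not printed.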

Additional observations from a re-analysis of the deposited data

How the results depend on the processing

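Under every edgeR alternative and with every library left out, 0 of the members passed. DESeq2 as the test passed 1 member (Snora16a) and 33 genes in all. Without a filter on low counts 47 genes of the whole table passed, and 0 to 3 genes and 0 to 3546 sequences passed when 1 library was left out, both highest without SCI 1 and with 0 member genes and 0 member sequences among them. The replicate block passed 4 genes and 2 sequences, no member among them. Same-numbered libraries did not deviate together (correlations 0.0136, -0.0973 and 0.0961), so the numbers give no pairing. Snora16a with the block had -0.82.

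The SCI minus control difference of the summed share was -0.0012 percentage points with reads of 18 to 26 nt, -0.0013 with 17 to 27 nt (added after seeing the data) and -0.040 points of distinct sequences. The difference in the 3′ terminal share was -2.16 points with members weighted equally, against -6.75 as reported. The H/ACA minus Snord difference in that share was -1.60 points with Snora16a left out of H/ACA (added after seeing the data), against 5.19 as reported.

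The log2 fold changes that turned sign were mostly near 0. With reads of 17 to 27 nt Scarna6 was -0.39, Scarna2 -0.48 and Scarna13 0.062. With reads of 18 to 26 nt Scarna6 was -0.39, Scarna10 -0.13, Scarna2 -0.23 and Snora73a 0.33. Without a count filter Scarna10 was -0.030, Scarna2 -0.020, Snora30 -0.016 and Snora81 -0.050. A minimum count of 50 gave -0.011 for Scarna10. DESeq2 size factors gave -0.012 for Snora81. Scaling by all reads gave 0.010 for Snora73a and 0.018 for the Snora36b read from nt 68 to 89. Reads found in members alone gave -0.18 for Snora30 and -0.0047 for Snora7a. The replicate block gave -0.015 for Scarna2, 0.11 for Snora73a and -0.011 for the Snora44 read from nt 64. The cause was not tested.

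Leaving out 1 library gave ranges of -0.17 to 0.22 for Scarna10, -0.30 to 0.24 for Scarna2, -0.19 to 0.22 for Snora30, -0.17 to 0.21 for Snora36b, -0.0063 to 0.21 for Snora41, -0.31 to 0.56 for Snora73a, -0.33 to 0.19 for Snora73b, -0.11 to 0.17 for Snora7a and -0.61 to 0.61 for Snora81. For single reads the ranges were -0.28 to 0.050 for Snora7a, -0.11 to 0.19 for Snora44 from nt 64, -0.28 to 0.14 for Snora36b, -0.19 to 0.36 for Scarna10 and -0.17 to 1.95 for Snora44 from nt 1, lowest without SCI 2. The 13 members with under 50 reads in all entered a test only without the count filter, where 0 of 49 members passed and 4 had an unadjusted edgeR p under 0.05.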
